A study of Rattus norvegicus with 8 samples.

Results

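The proteasome genes of the rat lumbar spinal cord were taken as all probes, other than control spots, whose gene name on the array begins with Psma to Psmg followed by a digit. The names gave 53 probes for 48 genes, out of 30367 probes for 26514 gene names on the array, and the brightest probe of each gene stood for it. The arrays came from 8 male Wistar rats, 12 weeks old, with 1 array per rat. In the stress group, 4 rats were placed daily for 10 days on a small platform surrounded by water, which they avoid, and tissue was taken 24 h after the last session. The control group held 4 rats that, per the study, were handled instead of stressed. No rat carried a transgene or a drug, and total RNA of whole lumbar L6S1 segments was hybridised, so that fewer cells of a type and less RNA per cell cannot be told apart. The comparison asked whether the mRNA of the protein degradation machinery differed in the spinal cord of rats under repeated psychological stress.

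The proteasome is the protease that degrades proteins tagged with ubiquitin. Its 20S core is a barrel of alpha rings, which gate the entrance, and beta rings, which hold the cutting sites, and its 19S cap binds ubiquitin, removes it and unfolds the substrate with a ring of ATPases. Interferons induce the immunoproteasome subunits Psmb8, Psmb9 and Psmb10, which replace Psmb5, Psmb6 and Psmb7 in newly built cores, and the PA28 activator genes Psme1 and Psme2. In nervous tissue the exchanged subunits are known chiefly from glia and infiltrating immune cells.

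All values are log2 signals relative to the 75th percentile of their array, so a value of 0 equals that percentile and levels of different probes were not compared. A probe was tested if its signal was well above background, as flagged by the scanner software, on at least 4 of the 8 arrays, which left 23678 probes, and a probe was called at a false discovery rate (FDR) below 0.1. Of the tested probes, 872 (3.68%) were called in limma's test, and 76.7% of the called probes were higher in stress. This share was 49.4% with quantile normalization and 52.3% with median centring, which lowered the median difference over all probes from 0.07 to -0.04. Before the results, 2 arrays had to be set apart. Control replicate 2 received an array weight of 0.11 against 0.78 to 2.72 for the others, and probes nearer the 5' end of transcripts read higher in it, relative to probes nearer the 3' end, than in the other controls (a 5' to 3' gap of 0.22, against -0.30 to -0.18 in the other controls and 0.09 to 0.17 in the stress group). Without control replicate 2, this gap separates the groups completely. In all values given without that array, the 5' to 3' gap and the group therefore cannot be told apart. In stress replicate 3, the lumbar position gene Hoxa10 was at -3.46, against -0.32 to 0.53 on the other 7 arrays. Hoxd10 was at 0.44 in it, against 1.44 to 2.27. Markers of neurons, glia and vessels were above background, as the labelled tissue implies. All 8 arrays lay on 1 slide, with the controls in one row and the stress group in the other, so that slide row and group cannot be told apart.

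No proteasome gene passed the test. None of the 48 was called by limma, against 3.68% of all tested probes, 4 (8.33%, against 20.3% of all tested probes) had an unadjusted p below 0.05, and the linear model without moderation called 1 (Psma3l). The stress mean was higher for 18 genes and lower for 30, with differences between -0.23 and 0.34. The median difference was -0.06, beside 0.07 over all tested probes. The differences were small in size, with a median absolute value of 0.09 against 0.17 over all probes, and their standard errors (SE) were also small, with a median of 0.08 against 0.13. The 95% interval of the difference lay within 1.5-fold in both directions for 43 of the 48 genes (89.6%, against 58.5% of all tested probes) and within 1.2-fold for 15 (31.2%, against 12.7%). The widest interval, that of Psmb11, reached 1.69-fold. A missed threshold does not show that the levels were equal. These intervals give the sizes that remain possible only under this normalization and model. With median centring the median difference was -0.17. With the 5' to 3' gap of each array in the model, Psma5 differed by 0.157 and Psmc6 by 0.212. Both lie above the upper ends of their intervals (0.152 and 0.198). The plot of differences with their intervals shows all 48 genes by their place in the complex.

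**Figure D1:**
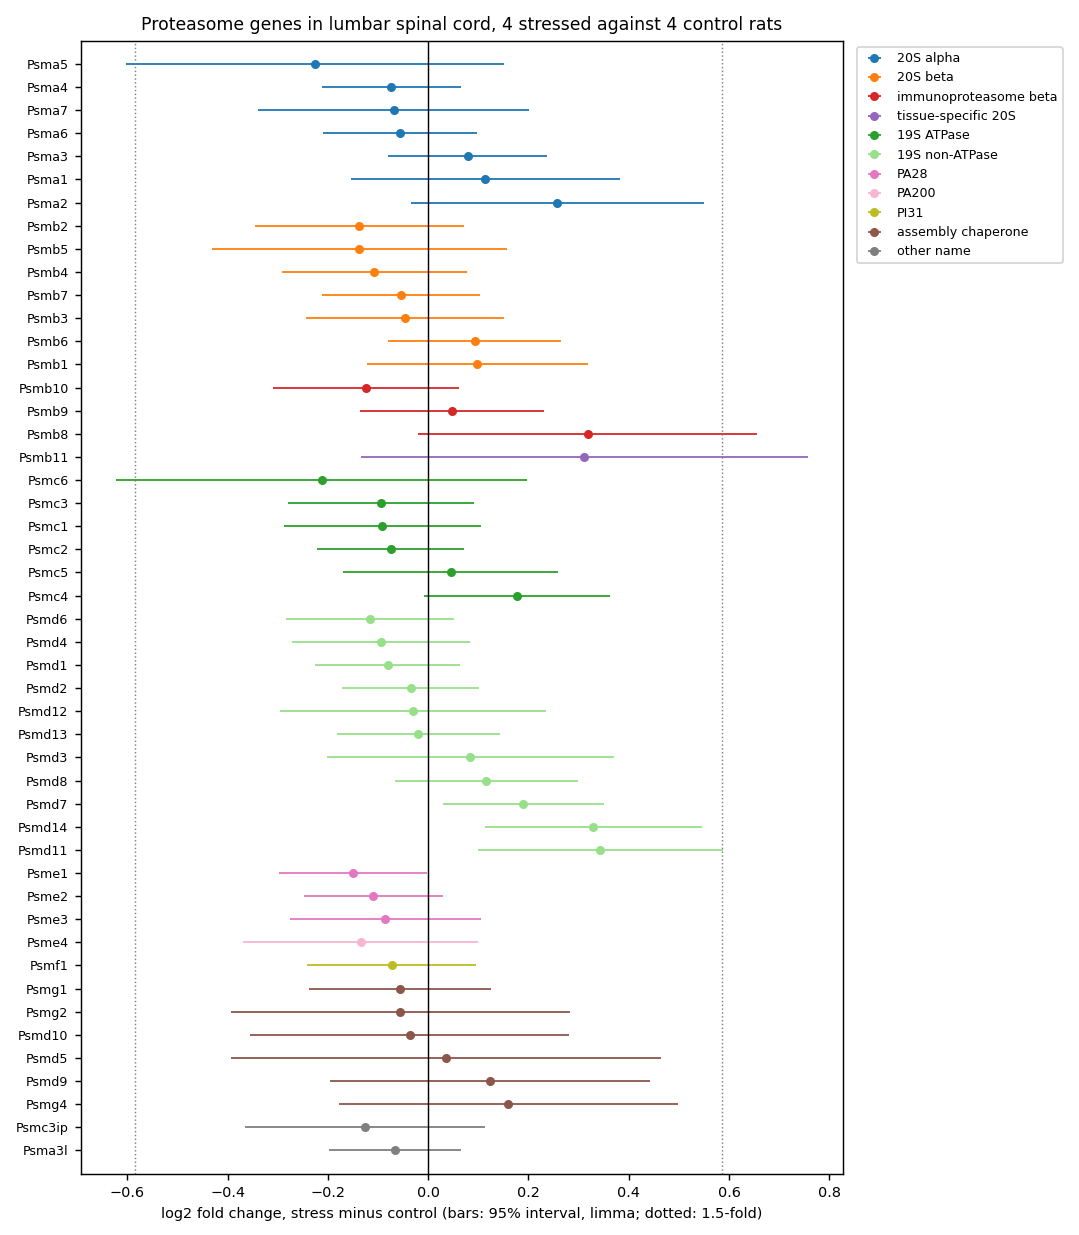
Log2 fold change of 48 proteasome genes, the mean of 4 stressed minus the mean of 4 control rats, coloured and ordered by part of the complex, with 95% intervals from limma as bars and dotted lines at 1.5-fold. Points run from -0.23 (Psma5) to 0.34 (Psmd11), and the intervals of Psmd14, Psmd11, Psmd7 and Psme1 leave out 0, before adjustment for the 23678 probes tested.

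The largest differences upward were in the 19S lid, the part of the cap that takes ubiquitin off substrates. Psmd14 is the lid's deubiquitinating enzyme. It measured 0.54, 0.27, 0.48 and 0.56 in controls 1 to 4, and 0.79, 0.86, 0.64 and 0.87 in stress replicates 1 to 4. The lowest stressed rat was thus above the highest control, and the difference was 0.33 (SE 0.09, adjusted p = 0.132). Psmd11, a scaffold subunit of the lid that also touches the core, measured -0.55, -0.55, -0.71 and -0.92 in the controls and -0.27, -0.43, -0.43 and -0.22 in the stress group. The groups again did not overlap, control replicate 4 was the lowest, and the difference was 0.34 (SE 0.11, adjusted p = 0.151).

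Psmd7, the partner of Psmd14 in the lid, was named after its values were seen, as the remaining gene with all stressed rats above all controls. It measured 0.81, 0.63, 0.73 and 0.81 in the controls and 0.96, 0.87, 0.96 and 0.93 in the stress group, a difference of 0.19 (SE 0.07, adjusted p = 0.198). Thus 3 of 48 genes had stress above control without overlap, beside 6.94% of all tested probes. The other lid and base subunits without ATPase activity were on both sides of 0. Of all 11 non-ATPase subunits, 5 were higher and 6 lower, with a median of -0.02.

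The probe of Psmd14 is shown because it carries the lowest adjusted p of the complex, together with those of Psma2, whose difference was smaller without control replicate 2, and of the pair Psmb8 and Psmb5. All 4 are the 60-base sequences of the array, 5' to 3', each holding an open reading frame. On the rn4 assembly used by the array, they lie at chr3:43696292-43699023 (Psmd14) and chr17:58736661-58738012 (Psma2), both across an intron, and at chr20:4787980-4788039 (Psmb8) and chr15:32690134-32690193 (Psmb5).
Psmd14: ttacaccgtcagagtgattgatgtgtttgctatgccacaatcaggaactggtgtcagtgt
Psma2: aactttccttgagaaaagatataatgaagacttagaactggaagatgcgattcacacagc
Psmb8: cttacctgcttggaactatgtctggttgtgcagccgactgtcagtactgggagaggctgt
Psmb5: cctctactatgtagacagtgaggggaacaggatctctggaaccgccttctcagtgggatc

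The 6 ATPases of the 19S base, which unfold the substrate and thread it into the core, had a median difference of -0.08, with 2 higher and 4 lower. Psmc6, one of these ATPases, had the largest difference downward among them. It measured 0.55, -0.20, 0.55 and 0.44 in the controls, and 0.06, 0.15, -0.03 and 0.31 in the stress group. Control replicate 2 was the lowest of all 8 arrays and the other 3 controls were the highest. The difference was -0.21 (SE 0.18, adjusted p = 0.510), and it was -0.39 (adjusted p = 0.019) without control replicate 2.

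The alpha subunits of the core, which form the gate of the barrel, were on both sides of 0, with 3 higher, 4 lower and a median of -0.06. Psma5 measured 2.57, 1.80, 2.42 and 2.39 in the controls and 2.12, 2.09, 1.94 and 2.13 in the stress group. All 4 stressed rats were below controls 1, 3 and 4 and above control 2, and the difference was -0.23 (SE 0.16, adjusted p = 0.450). Psma2, in the same ring, measured 1.93, 1.40, 1.90 and 1.84 in the controls and 2.10, 2.03, 1.92 and 2.05 in the stress group. Control 2 was again the lowest, but here the other controls lay just below or within the stress range. The difference of 0.26 (SE 0.13, adjusted p = 0.288) was 0.14 without control 2 (adjusted p = 0.147), while that of Psma5 was -0.39 (adjusted p = 0.0094).

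The constitutive beta subunits had a median of -0.05, with 2 higher and 5 lower. Psmb2, a beta subunit without a cutting site, measured 2.75, 2.42, 2.73 and 2.69 in the controls and 2.51, 2.51, 2.44 and 2.57 in the stress group. The stressed rats lay between control 2 and the other controls, and the difference was -0.14 (SE 0.09, adjusted p = 0.405; -0.21, adjusted p = 0.025, without control 2). Psmb11, the beta subunit of the thymic form of the proteasome, is not known as a spinal cord gene. Its probe measured -4.13, -3.73, -4.18 and -4.67 in the controls and -3.69, -3.98, -3.74 and -4.06 in the stress group. The groups overlapped, and the difference was 0.31 (SE 0.19, adjusted p = 0.381), or 0.15 without control 4. A second probe of Psmb11 was not well above background on any of the arrays and was the 1 probe of the 53 that was not tested.

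**Figure D2:**
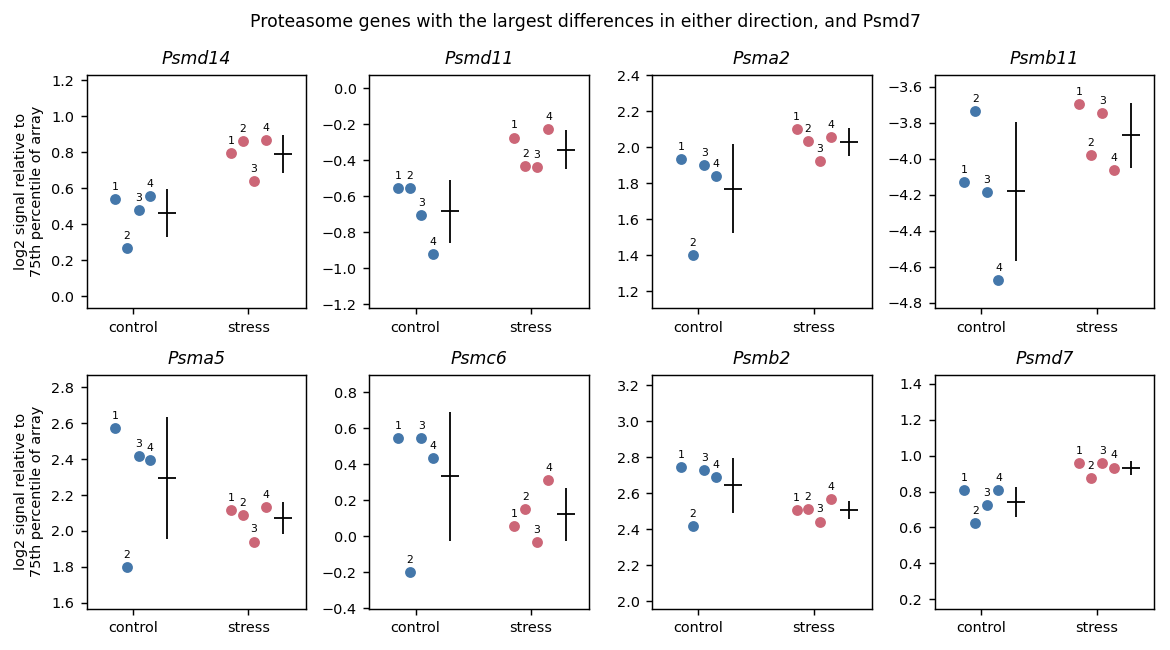
Log2 signal relative to the array's 75th percentile for 8 proteasome genes in each control (blue) and stressed (red) rat, numbered by replicate, with the group mean and SD in black and 1.3 log2 units on each axis. Stressed rats lie above all controls for Psmd14, Psmd11 and Psmd7, and control 2 lies below all other arrays for Psma5, Psmc6, Psma2 and Psmb2.

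The immunoproteasome subunits did not move as a group. Their median difference was 0.05, with 2 higher and 1 lower, and none was called. Psmb8, which takes the place of Psmb5, measured -2.38, -1.85, -2.40 and -2.18 in the controls and -1.76, -1.99, -1.73 and -2.07 in the stress group. The stressed rats were above controls 1, 3 and 4 and overlapped control 2. The difference was 0.32 (SE 0.15, adjusted p = 0.265) with all arrays and 0.44 (adjusted p = 0.023) without control 2. With all arrays and their 5' to 3' gap in limma's model, it was 0.0066 (adjusted p = 0.978).

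Psmb9, which replaces Psmb6, measured -1.46, -1.58, -1.44 and -1.64 in the controls and -1.40, -1.54, -1.41 and -1.58 in the stress group. Both groups covered nearly the same range, with a difference of 0.05 (SE 0.08, adjusted p = 0.748) that turned to -0.06 under quantile normalization and under median centring. Psmb10, which replaces Psmb7, measured 1.57, 1.80, 1.54 and 1.55 in the controls and 1.52, 1.43, 1.53 and 1.48 in the stress group. All stressed rats were below all controls, by a narrow margin from controls 1, 3 and 4. The difference of Psmb10 was -0.12 (SE 0.08, adjusted p = 0.400), or -0.06 without control 2. It was -0.23 (adjusted p = 0.111) with median centring. With all arrays and their 5' to 3' gap in limma's model, Psmb10 was called lower (-0.26, adjusted p = 0.081).

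Their constitutive partners were also close between groups. Psmb5, the chymotrypsin-like site, measured 3.38, 2.90, 3.35 and 3.37 in the controls and 3.15, 3.09, 2.97 and 3.25 in the stress group, a difference of -0.14 (SE 0.13, adjusted p = 0.552). It was lower in control 2 than in the other controls, as it was in the stressed rats by a smaller amount, and the difference without control 2 was -0.25 (adjusted p = 0.042). Psmb6, the caspase-like site, measured 1.89, 1.85, 1.78 and 1.82 in the controls and 1.97, 1.98, 1.77 and 1.98 in the stress group. Here stress replicate 3 was the lowest array and the other stressed rats the highest, and the difference was 0.09 (SE 0.07, adjusted p = 0.492; -0.02 under median centring). Psmb7, the trypsin-like site, measured 2.31, 2.37, 2.29 and 2.40 in the controls and 2.28, 2.33, 2.19 and 2.35 in the stress group, a difference of -0.05 (SE 0.07, adjusted p = 0.665).

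The exchange of subunits was compared within each array as the immunoproteasome subunit minus its partner, of which only the change between groups was read. Psmb8 minus Psmb5 changed by 0.46 from control to stress (exact two-sided permutation test over all 70 choices of 4 arrays, p = 0.143, adjusted over 3 pairs 0.429). The change was 0.69 without control 2. Psmb9 minus Psmb6 changed by -0.05 (exact permutation p = 0.629, adjusted 0.629), and Psmb10 minus Psmb7 by -0.07 (exact permutation p = 0.429, adjusted 0.629). The smallest p this design allows is 0.0286. With the 5' to 3' gap of each array in the model, the change of Psmb8 minus Psmb5 was -0.13, and the part of RNA quality in this pair was not tested further.

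PA28 activators open the gate of the core without ubiquitin. The 3 genes grouped here as PA28 (Psme1, Psme2 and Psme3) were all lower in stress, with a median of -0.11 and none called. Each kept its sign under each of the alternatives run. The groups of Psme3 overlapped (-0.09, SE 0.08). Psme1 measured 2.19, 2.14, 2.23 and 2.19 in the controls and 2.06, 1.96, 2.02 and 2.10 in the stress group. All stressed rats were below all controls, and the difference was -0.15 (SE 0.06, adjusted p = 0.241), with -0.17 (adjusted p = 0.061) without control 2. Psme2, which forms the ring with Psme1, measured 2.32, 2.35, 2.31 and 2.29 in the controls and 2.26, 2.15, 2.20 and 2.22 in the stress group, a difference of -0.11 (SE 0.06, adjusted p = 0.335). The groups of Psme2 also did not overlap. With Psmb10, and with the core genes Psma4 and Psma3l, named after their values were seen, 5 of 48 genes had stress below control without overlap, beside 5.13% of all tested probes. RefSeq now lists Psma3l as a synonym of Psma3, so that the 48 names hold this gene under both. The probe named Psma3 differed in the other direction, by 0.08 (SE 0.07), and its groups overlapped.

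**Figure D3:**
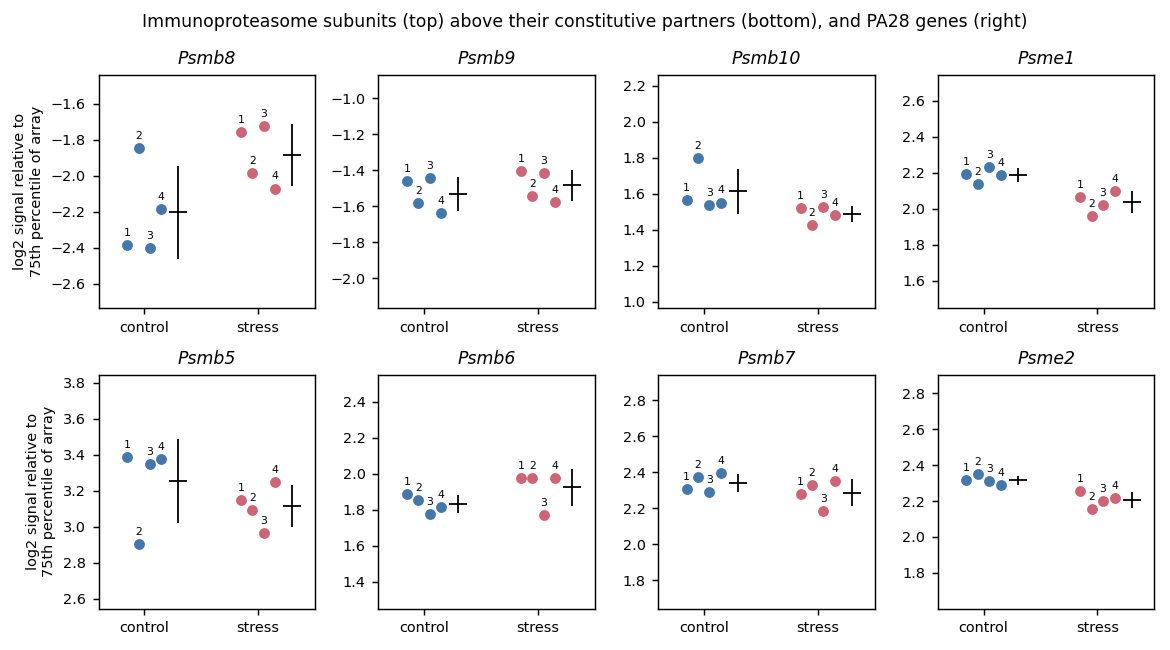
Log2 signal relative to the array's 75th percentile for the immunoproteasome subunits (top) and their constitutive partners (bottom) in the first 3 columns and the PA28 genes Psme1 and Psme2 in the last, in each control (blue) and stressed (red) rat with mean and SD in black. Control 2 is the highest control for Psmb8 and Psmb10 and the lowest for Psmb5, and the stressed rats lie below all controls for Psmb10, Psme1 and Psme2.

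Promoters are shown for members whose transcription is known to respond to interferon or to the stress factors of the proteasome, in the 100 bases before the annotated start (RefSeq, GRCr8 assembly, gene strand, 5' to 3'). In Psmb10 (chr19:50743293-50743392) and Psme2 (chr15:33052752-33052851), capitals mark the interferon response element letters GAAANNGAAA. In Psmb5 (chr15:32047380-32047479) and Psmb6 (chr10:55737788-55737887), capitals mark TGACNNNGC, the core letters of the antioxidant response element, which Nfe2l1 and Nfe2l2 bind.
Psmb10: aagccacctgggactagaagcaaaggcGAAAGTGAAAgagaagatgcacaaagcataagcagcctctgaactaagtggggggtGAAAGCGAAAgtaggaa
Psme2: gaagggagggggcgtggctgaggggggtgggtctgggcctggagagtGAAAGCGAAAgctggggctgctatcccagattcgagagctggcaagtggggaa
Psmb5: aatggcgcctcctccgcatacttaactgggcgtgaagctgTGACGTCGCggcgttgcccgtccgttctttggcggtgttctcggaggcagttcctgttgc
Psmb6: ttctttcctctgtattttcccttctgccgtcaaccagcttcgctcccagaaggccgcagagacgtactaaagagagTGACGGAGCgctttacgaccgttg

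RefSeq held a promoter window of 300 bases for 42 of the 48 genes. On either strand, GAAANNGAAA was found in 7 of the 42 (Psma4, Psmb3, Psmb8, Psmb10, Psmd7, Psme2 and Psmg4) and in 3.92% of all 33469 windows. TGACNNNGC was found in 8 (Psma3, Psmb2, Psmb5, Psmb6, Psmd1, Psmd3, Psmd9 and Psme4) and in 12.1% of all windows. These are matches of letters and not binding sites. Of the 7 genes with the first motif, 3 were higher in stress (Psmb8 by 0.32, Psmd7 by 0.19 and Psmg4 by 0.16) and 4 lower (Psmb10 by -0.12, Psme2 by -0.11, Psma4 by -0.07 and Psmb3 by -0.05), none of them called.

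The remaining members were the activator Psme4 (PA200), the inhibitor Psmf1 (PI31) and the assembly chaperones. Psme4 and Psmf1 differed by -0.13 (SE 0.10) and -0.07 (SE 0.07), but a second probe of each differed in the other direction, by 0.23 (SE 0.14) and 0.13 (SE 0.10). The 6 assembly chaperones, which build the core and the base and are not part of the finished particle, had a median difference of 0.00. They were also the members that varied most in control 2, where 5 of the 6 were over 0.3 away from the other controls. Psmc3ip, which matched the name rule, is a recombination cofactor and no proteasome subunit, and it differed by -0.13.

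Across the proteasome genes, control replicate 2 deviated more than any stressed rat. The deviations of the 48 genes from their own means had an interquartile range of 0.34 in control 2 and of 0.09 to 0.17 on the other 7 arrays. Over all tested probes, that range was 0.42 in control 2 and 0.22 to 0.39 on the other 7 arrays. Control 2 was over 0.3 from the mean of the other controls for 19 genes (39.6%, against 53.3% of all tested probes), and the stress mean for 5 (10.4%, against 38.6%). By genes chosen after their values were seen, it was farthest below them for the chaperones Psmd5 (-0.80), Psmg2 (-0.56) and Psmd10 (-0.56) and the subunits Psmc6 (-0.71) and Psma5 (-0.66). It was farthest above them for Psmb11 (0.59), Psmg4 (0.53), Psmd9 (0.52) and Psmb8 (0.48). In 34 of the 48 genes (70.8%, against 68.1% of all tested probes) control 2 was farther from the other controls than the mean of the stressed rats was, a share near that of the whole array. A single array varies more than a mean of several arrays, so control 2 would often be the farther without any effect. Neither this share nor the counts over 0.3 can therefore show that control 2 deviated more than the stress group did.

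**Figure D4:**
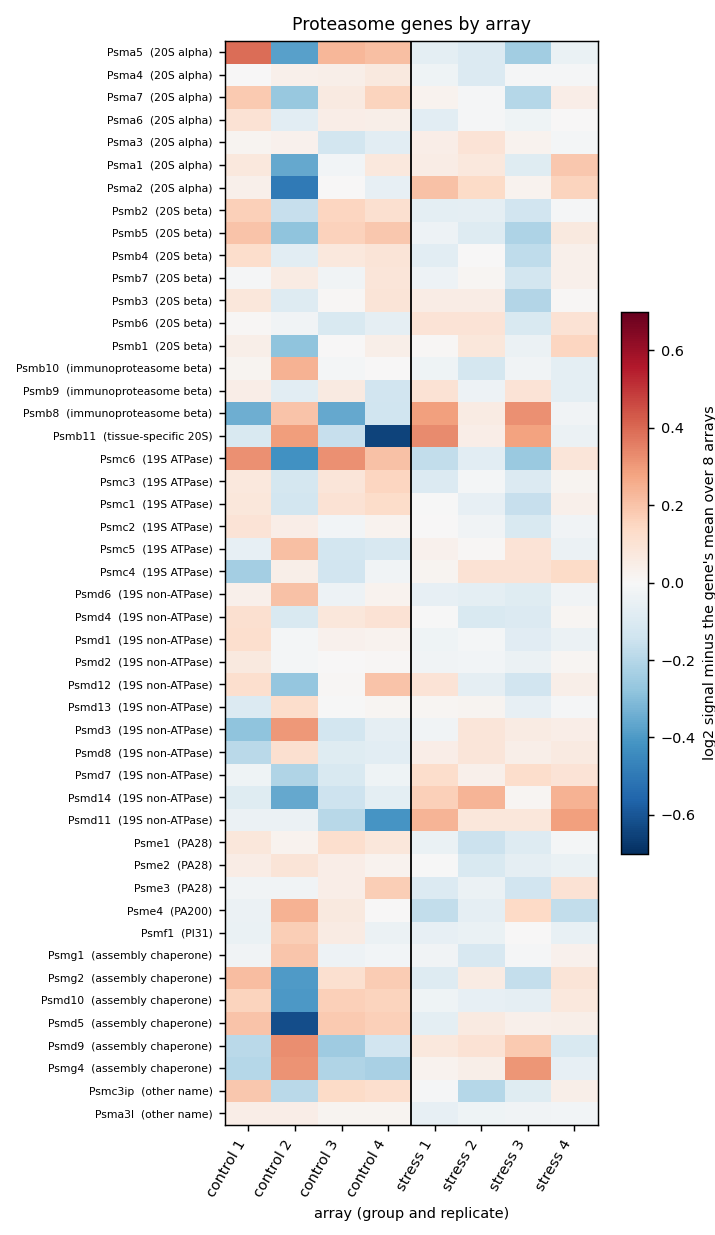
Log2 signal of each proteasome gene minus its mean over 8 arrays, from -0.7 (blue) to 0.7 (red), with arrays as columns and genes as rows in the order of the plot of differences. Control 2 is the column with the strongest colours, in both directions, and the 4 stress columns are paler than it.

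Without control 2, limma called 20 of the 48 genes, 10 higher and 10 lower, beside 42.3% of all tested probes, a share near the background. The highest differences were then those of Psmb11 (0.46), Psmb8 (0.44) and Psmd11 (0.39), and the lowest those of Psma5 (-0.39) and Psmc6 (-0.39). The median over the 48 genes was -0.06 against 0.10 over all probes. With all 8 arrays and their 5' to 3' gap as a covariate, 8 genes were called, beside 9.76% of all tested probes. Of these, 7 were higher and 1 was lower (Psmb10). Psmd14 (0.48, adjusted p = 0.049) and Psma2 (0.54, adjusted p = 0.039) were among them, while Psma5 (0.16), Psmc6 (0.21), Psmb5 (0.13) and Psmb2 (0.04) changed sign. Psmb11 (0.024), Psmb8 (0.0066) and Psmd11 (0.29), the highest without control 2, were not called with the covariate. This covariate was low in 3 of the controls and higher in control 2 and all stressed rats. It is thus largely shared with the group, and without control 2 it separates the groups completely.

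Among 19 tested partners and regulators of the proteasome, 1 was called, beside 3.68% of all tested probes. Usp14, a deubiquitinating enzyme that docks on the 19S cap, measured 1.23, 1.58, 1.42 and 1.48 in the controls and 1.80, 1.90, 1.71 and 1.97 in the stress group. All stressed rats were above all controls, and Usp14 rose by 0.42 (SE 0.10, adjusted p = 0.092). Adrm1, a ubiquitin receptor of the cap, differed by -0.50 (SE 0.16, adjusted p = 0.166), Nfe2l1, the factor that induces proteasome genes, by 0.15 (SE 0.07, adjusted p = 0.256), and Pomp, the chaperone of the core, by 0.00 (SE 0.09, adjusted p = 0.986). Over these 19 genes the median was 0.03, with 11 higher and 8 lower, and 9 were called without control 2, beside the 42.3% of all probes.

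Of 18 tested ubiquitin and unfoldase genes, 2 were called, beside 3.68% of all tested probes. Both are enzymes that pass ubiquitin to substrates. Ube2d1 measured -1.61, -0.30, -1.25 and -1.24 in the controls and 0.07, 0.18, 0.05 and 0.03 in the stress group, and rose by 1.19 (SE 0.25, adjusted p = 0.078). Ube2d2 measured -0.82, -0.62, -0.79 and -0.76 in the controls and -0.48, -0.33, -0.41 and -0.40 in the stress group, and rose by 0.34 (SE 0.07, adjusted p = 0.078). The stressed rats were above all controls for both, with control 2 as the nearest control. The median of the 18 genes was -0.02, with 8 higher and 10 lower, and 7 were called without control 2, beside the same 42.3%. The calls of Usp14, Ube2d1 and Ube2d2 were lost when any 1 array other than control 2 was left out, with adjusted p between 0.150 and 0.257 and the direction kept. Median centring (adjusted p = 0.140 for both), normexp background correction (0.152 and 0.110) and the 5' to 3' covariate (0.175 and 0.104) also ended the calls of Usp14 and Ube2d2. The model without moderation ended the call of Ube2d1 (0.110). With the replicate number as a block in limma's model, no call was kept (adjusted p = 0.206 for Usp14, 0.201 for Ube2d1 and 0.206 for Ube2d2). With the covariate, Ube2d1 differed by 0.57 (adjusted p = 0.058) and not by 1.19.

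None of 17 tested genes of MHC class I antigen processing was called by limma, beside 3.68% of all tested probes. Of these 17, 5 had an unadjusted limma p below 0.05, where 20.3% of all tested probes did. Without control 2, 10 of the 17 were called, beside 42.3% of all probes. The list shares 5 genes with the proteasome genes, and its median was 0.14, with 11 higher and 6 lower. Tap1, a subunit of the peptide transporter encoded next to Psmb9, measured -5.66, -4.61, -5.42 and -5.42 in the controls and -4.43, -4.69, -4.70 and -5.17 in the stress group. Control 2 lay within the range of the stressed rats, as for Psmb8, and the difference was 0.53 (SE 0.25, adjusted p = 0.274). Irf1, an interferon response factor, differed by -0.09 (SE 0.09, adjusted p = 0.587), and B2m, the light chain of MHC class I, by -0.12 (SE 0.11, adjusted p = 0.555), or -0.23 (adjusted p = 0.030) without control 2.

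Of 8 microglia and macrophage markers, none was called, 1 had an unadjusted p below 0.05 and none was below background. Their summed linear level, in units of the array's 75th percentile, was 10.2 to 12.98 in the controls and 10.4 to 13.2 in the stress group. Of 4 Schwann cell markers, none was called, and their sum was 6.98 to 72.6 in the controls and 6.78 to 21.6 in the stress group. In 2 other marker lists 1 gene each was called, where 3.68% of all tested probes were. The oligodendrocyte marker Mog rose by 0.90 (SE 0.18, adjusted p = 0.070), with the 6 markers of that list summing to 226.9 to 333.9 in the controls and 248.8 to 344.0 in the stress group. The endothelial marker Pecam1 rose by 0.41 (SE 0.09, adjusted p = 0.088), with 5 markers summing to 2.71 to 3.74 and 3.21 to 3.93. Both calls were lost when any 1 array other than control 2 was left out (adjusted p between 0.130 and 0.259). Cnp, also of oligodendrocytes, differed by 1.70 (SE 0.58, adjusted p = 0.180), with control 2 in the range of the stressed rats. The part of these cells in the values of Usp14, Ube2d1, Ube2d2 and the proteasome genes was not tested. Without stress replicate 3, where Hoxa10 was low, none of the 48 proteasome genes was called and their median difference was -0.02.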

How the data were processed

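Total RNA of 4 stressed and 4 control rats was labelled with Cy3 and hybridised to Agilent SurePrint G3 rat arrays. The intensity values deposited by the authors come from Agilent Feature Extraction 10.7.3.1, per the file headers, and are background-subtracted and detrended. They were not normalized between arrays, and the authors' series table holds the same intensity, rounded. The study names dChip and an FDR below 0.1, with no test stated.

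Here, log2 of the deposited processed intensity was taken minus each array's 75th percentile, outlier spots were left out and spots of a probe were averaged. Probes well above background on at least 4 of 8 arrays were fitted with limma 3.58.1 (R 4.3.3, lmFit and eBayes, two-sided), with Benjamini-Hochberg adjustment over all 23678 probes. Intervals are at 95%. The number of arrays limits the precision, and as the labels do not say more than replicate numbers, p-values measure the spread between these samples. In simulated data for this comparison, with 200 of 23678 probes shifted, 69.5% were recovered at a shift of 1 and 27% at 0.5 (log2). There were 19 and 8 false calls. The simulated noise was independent between probes and arrays, with no outlying array and no 5' to 3' gap. The shifted probes were drawn from all tested probes, so the shares are not those of the proteasome genes.

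Genes named with values were those called, the 5 highest and 5 lowest by log2 fold change, Psmb5 to Psmb10, Psme1 and Psme2, and those not tested. The members and lists were chosen with earlier results of these data known. The alternatives were background correction, normalization, filters, variance settings, array weights, the replicate number as a block, a 5' to 3' covariate and leaving out each array. For the covariate, probe pairs at least 300 bases apart on 1885 transcripts were used. Motifs were searched in RefSeq promoters of GRCr8. Of the 48 genes, 19 have pseudogenes named in RefSeq, whose transcripts could bind the same probes. Psma8 is not under its own name on the array and was left out by the rule. Probe positions are on rn4, for which no annotation of exons and UTRs was used here.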

Additional observations from a re-analysis of the deposited data

Results flagged for a closer look

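In all, 38 groups of 4 rats, not only those of the genes named by rule, were checked for 1 sample far from the others (Dixon's ratio of the gap to the range). Of these groups, 5 exceeded the 95% limit, where chance gives about 1 in 20 groups. In 4 of them the sample was control replicate 2: Psmb5 (ratio 0.922), Psmb10 (0.875), Psmc6 (0.848) and Psmb2 (0.832). In the fifth, it was stress replicate 3, for Psmb6 (0.978). Over all 48 genes, 11 control groups exceeded the limit, all 11 with control 2 as the outlying sample (22.9%, against 11.8% of all tested probes), and 1 stress group did.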

How the results depend on the processing

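The count of all probes called (872) was 231 with normexp background correction, 3257 with no filter on dim probes, 1331 with a variance trend and robust estimation, 11980 with array weights and 2311 with the 5' to 3' covariate. It ranged from 0 to 10015 when 1 array was left out. The count of proteasome genes called (0) was 1 with no filter and 1 with the variance trend (Psmd14 in both), 1 with no moderation (Psma3l), 25 with array weights (beside 50.6% of all probes) and 8 with the covariate, and 0 to 20 when 1 array was left out, where 20 came from leaving out control replicate 2. The median difference of the 48 genes (-0.06) was -0.17 with median centring, where that of all probes was -0.04, and 0.026 with the covariate, and -0.067 to -0.021 when 1 array was left out.

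Differences changed sign for Psmb9 with quantile normalization (-0.058) and median centring (-0.064), for Psmb6 with median centring (-0.018), and with the covariate for Psma5 (0.16), Psmb2 (0.042), Psmb5 (0.13) and Psmc6 (0.21). The change of Psmb8 minus Psmb5 was -0.13 with the covariate. That of Psmb9 minus Psmb6 was 0.0069 with the covariate and ranged from -0.12 to 0.0028 when 1 array was left out. The cause of these changes was not tested. Of 300 values of the 15 genes named by rule under the alternatives, 267 kept their direction and side of the threshold, and 26 passed the threshold where the reported value did not, 24 of them with array weights, the covariate or without control 2.

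Replicate numbers are those of the slide columns. Arrays of the same number correlated at 0.10, 0.12, -0.09 and 0.31 in their deviations from the group means, and 1 of the 4 correlated best with its own number, so that they were not taken as pairs. With the replicate number as a block, 0 of all probes and 0 proteasome genes were called by limma, with 4321 probes at an unadjusted p below 0.05. With 4 rats a group, simulated shifts of 0.5 were recovered in 27% of probes and shifts of 1 in 69.5%. These shares are for probes of the whole array under independent noise, without an outlying array.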
